A study of Mus musculus with 2 samples.

Results

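The cells described here were defined by 2 transcripts, Cp (ceruloplasmin, a copper-carrying ferroxidase) and Colec12 (a collectin scavenger receptor), in cultures of MM13 mouse embryonic stem cells on day 9 of differentiation, which the labels describe as neurons. A cell belonged to the set when it held at least 2 Cp unique molecular identifiers (UMIs, each a counted transcript), at least 1 Colec12 UMI and fewer than 5 UMIs of Col1a1 and Col1a2 together. Barcodes with fewer than 1000 genes or more than 10% mitochondrial UMIs were not considered. The rule selected 711 of 14688 cells, 497 of 6038 from a culture given retinoic acid (RA) and 214 of 8650 from a culture given RA and bone morphogenetic protein 4 (RA+BMP4). No genetic change is named in the labels, and both cultures were trypsin-dissociated and depleted of dead cells before droplet capture. Each condition was 1 library, so nothing could be tested between them, and every interval below (95%) covers counting error only. Cells of 1 library share their culture and are not replicates.

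The roof plate is the strip of epithelial cells along the dorsal midline of the neural tube, and it releases BMP and Wnt proteins that pattern the neurons beside it. In the hindbrain and forebrain the same strip widens into the choroid plexus, a secretory epithelium that makes cerebrospinal fluid and carries transthyretin, while in the spinal cord it later narrows into a midline septum. Roof plate cells are known by the transcription factors Lmx1a and Msx1 and by Wnt1, Gdf7 and R-spondins.

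The selected cells were richer in UMIs than the cells around them. Their median was 22215 UMIs in RA and 16655 in RA+BMP4, against 13862 and 10524 in the other kept cells, and a rule on raw UMIs is met more easily by deep cells. The median mitochondrial share was 6.12% in RA and 4.41% in RA+BMP4. Scrublet called 20 RA cells (4.02%) and 12 RA+BMP4 cells (5.61%) doublets, and at least 5 UMIs of the neuronal gene Stmn2 were found in 27 and 9 cells. No barcode of the set occurred in both libraries, while 22 barcodes of all kept cells did. Just inside the threshold, Cp was exactly 2 UMIs in 102 RA and 72 RA+BMP4 cells. Just outside it, 128 RA and 253 RA+BMP4 cells had 1 Cp UMI and met the rest of the rule. A further 60 and 69 cells had enough Cp and no Colec12 UMI. The collagen limit removed 3 cells from each library. The mitochondrial limit kept out 36 RA barcodes and 3 RA+BMP4 barcodes that met the gene rule.

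The set made up 8.23% of kept cells in RA [7.55 to 8.95] and 2.47% in RA+BMP4 [2.16 to 2.82], a ratio of 3.33. The intervals did not overlap. When each cell was first thinned to 5000 UMIs and the rule applied to what remained, the shares were 2.60% and 0.806%, a ratio of 3.22. Under a stricter cell filter of 2000 genes and 5% mitochondrial UMIs, the ratio was 2.15, with 72 RA and 162 RA+BMP4 cells left. Removing the cells with at least 2 UMIs of the pluripotency gene Dppa5a, 45 in RA and 4 in RA+BMP4, left a ratio of 3.08; the last alternative was chosen after the data were seen. For comparison, cells of roof plate type with Wnt1 and Rspo3 UMIs but outside the set (at least 1 Wnt1 and 2 Rspo3 UMIs and fewer than 5 each of collagen I and Stmn2, here Wnt1 Rspo3 cells) were 3.68% of cells in RA and 17.8% in RA+BMP4, the opposite order. The library and the condition cannot be told apart with 1 library each.

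Besides Cp and Colec12, 4 further genes had been proposed as markers of these cells. UMIs were summed over the set in each library and scaled to CPM, the UMIs of a gene per 1000000 UMIs. Cp was at 252.9 CPM in RA [244.6 to 261.4] and 250 CPM in RA+BMP4 [235.1 to 265.6]. Colec12 was at 521 in RA and 562 CPM in RA+BMP4. Both values are part of the rule and are given as a description. 1500015O10Rik (Ecrg4, a gene of a secreted peptide precursor that the choroid plexus also expresses) was at 109.7 CPM in RA [104.3 to 115.4] and 102.6 CPM in RA+BMP4 [93.1 to 112.7]. Other kept cells had 4.25 and 6.01 CPM. So this gene was 25.8-fold higher in the set in RA and 17.1-fold higher in RA+BMP4. It had a UMI in 49.1% of the set in RA and 35.1% in RA+BMP4, and in 26.1% and 18.2% after each cell was thinned to 5000 UMIs.

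Sostdc1, a secreted antagonist of BMP and Wnt signals, was at 205 in RA and 155 CPM in RA+BMP4, against 12.4 and 41.5 CPM in other cells. C1qtnf3, a secreted protein of the C1q and TNF family, was at 307 and 322 CPM, against 18.9 and 50.4 CPM. F3, the tissue factor that starts blood coagulation, was at 180 and 187 CPM, against 15.6 and 24.0 CPM. All 4 genes were above other cells in both libraries. None is part of the rule, but they were proposed with earlier results of these data known, so their levels are a description. In Wnt1 Rspo3 cells, 1500015O10Rik was at 15.2 and 9.79 CPM, F3 at 40.2 and 37.4 CPM and C1qtnf3 at 119 and 145 CPM. Sostdc1 was at 95.4 and 130.9 CPM there, so the set was 2-fold higher only in RA, and its log2 difference in RA+BMP4 was 0.24. Not every cell carried them: 187 of 497 cells in RA (37.6%) and 54 of 214 in RA+BMP4 (25.2%) had a UMI of all 4, while 3 RA and 5 RA+BMP4 cells had none. After thinning to 5000 UMIs, 8.28% of cells in RA [6.01 to 11.1] and 4.21% in RA+BMP4 [1.94 to 7.83] had all 4, and 12.1% and 11.7% had none. In neurons (at least 5 Stmn2 UMIs and fewer than 2 of Dppa5a, a set trimmed after its values were seen) all 4 were found unthinned in 1 of 2269 cells in RA and 3 of 2936 in RA+BMP4.

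Among the marker genes, Cp lies on chromosome 3 (GRCm38, 19957054 to 20009145), 1500015O10Rik on chromosome 1 (43730602 to 43742578), C1qtnf3 on chromosome 15 (10952332 to 10980150) and F3 on chromosome 3 (121723537 to 121735048), all on the plus strand. The 250 bases before the start of 3 of these genes are shown because the genes mark the same cells, from RefSeq promoters of GRCm38.p6 (plus strand, each read 5′ to 3′; Cp at the upstream one of its 2 starts). Capitals mark GGAATG or its reverse complement CATTCC, the core bound by TEAD factors, and TATAAA, both searched on both strands because Ctgf and Thbs1, textbook targets of TEAD, were among the leading genes. These motifs were chosen after the values were seen.
Cp, chr3:19956804-19957053: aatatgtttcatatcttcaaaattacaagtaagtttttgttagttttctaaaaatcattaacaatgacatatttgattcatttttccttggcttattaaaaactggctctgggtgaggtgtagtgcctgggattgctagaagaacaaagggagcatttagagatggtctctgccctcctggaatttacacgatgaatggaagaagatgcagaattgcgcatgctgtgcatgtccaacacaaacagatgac
1500015O10Rik, chr1:43730352-43730601: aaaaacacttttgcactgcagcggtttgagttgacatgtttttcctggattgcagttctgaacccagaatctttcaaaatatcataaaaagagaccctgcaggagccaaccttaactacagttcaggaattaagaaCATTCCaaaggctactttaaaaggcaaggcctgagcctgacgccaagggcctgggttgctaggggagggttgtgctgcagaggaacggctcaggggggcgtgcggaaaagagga
C1qtnf3, chr15:10952082-10952331: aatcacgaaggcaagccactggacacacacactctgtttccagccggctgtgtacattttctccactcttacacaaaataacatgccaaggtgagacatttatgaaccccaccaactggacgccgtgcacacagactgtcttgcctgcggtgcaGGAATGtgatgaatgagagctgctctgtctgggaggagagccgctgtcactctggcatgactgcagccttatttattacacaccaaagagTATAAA
GGAATG occurred once in the 1500015O10Rik window and once in the C1qtnf3 window, beginning 114 and 96 bases before the start, and neither in the window of Cp printed here nor in that of F3. The window before the downstream start of Cp (ending at 19957248), which overlaps the upstream transcript and is not printed, held GGAATG once on the reverse strand, 196 bases before that start, and TATAAA on both strands in overlapping letters, 27 and 25 bases before it. So the matches in Cp depended on which start was taken. It occurs in 12.6% of 32817 RefSeq promoter windows of this length. TATAAA was also found in the C1qtnf3 window, beginning 6 bases before the start, and occurs in 12.4% of all windows. TAATTA, the core of many homeodomain sites, was in none of these windows and occurs in 4.845% of all. The GC content differed between the genes: 37.2% before Cp, 48.4% before 1500015O10Rik, 49.2% before C1qtnf3 and 70.0% before F3, where the median of all windows was 52.4%. A match is a run of letters and no evidence of binding.

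Roof plate genes were widely present. After thinning every cell to 5000 UMIs (495 of 497 cells in RA and all 214 in RA+BMP4 were deep enough), 89.9% of cells in RA and 92.5% in RA+BMP4 had UMIs of at least 3 of 21 roof plate genes. In neurons the shares were 7.68% and 14.4%, and in Wnt1 Rspo3 cells 97.3% and 98.2%. All other kept cells, which include both of these kinds, had 20.6% and 45.45%. Unthinned, the shares were 99.6% and 99.5% in the set and 25.2% and 27.6% in neurons. In all other kept cells they were 47.8% and 61.1%. Wnt1 and Rspo3 are among the 21 genes, so the shares of Wnt1 Rspo3 cells are partly set by the rule that chose those cells. The median cell of the set showed 5 of the 21 genes in RA and 6 in RA+BMP4. Of 16 roof plate genes at 20 CPM or more in the set or in other cells, 7 were at least 2-fold above other cells in both libraries and none below, where 3.33% of 7082 genes were higher and 5.07% lower. Among them were Lmx1a, Msx1, Bmp6, Bmp7 and Rspo2. Other cells include many neurons, and the set was chosen by Cp and Colec12.

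Msx1, a homeodomain factor induced by BMP signals, had a UMI in 76.8% of cells in RA [72.8 to 80.4] and 83.6% in RA+BMP4 [78.0 to 88.3] after thinning. Before thinning the shares were 94.4% and 94.9%. Neurons had a thinned UMI of Msx1 in 3.41% and 13.03% of cells, and one before thinning in 8.11% and 19.7%, at medians of 12625 and 9629 UMIs. Its summed level was 468 in RA and 501 CPM in RA+BMP4, close to the 434 and 554 CPM of Wnt1 Rspo3 cells. Lmx1a, the factor that specifies roof plate, had a UMI in 20.8% [17.3 to 24.7] and 27.6% [21.7 to 34.1] of cells, against 0.539% and 2.35% of neurons. Unthinned, 62.0% of the set in RA and 56.1% in RA+BMP4 had a UMI of Lmx1a. Its level was 47.6 in RA and 58.6 CPM in RA+BMP4, and 44.1 and 59.5 CPM in Wnt1 Rspo3 cells. For both factors the set and the Wnt1 Rspo3 cells lay close together.

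The secreted signals of the roof plate were less even. Rspo3, an R-spondin that strengthens Wnt signals, had a UMI in 46.9% of cells in RA and 55.1% in RA+BMP4 after thinning, and Wnt1 in 22.6% and 28.5%. Unthinned, Rspo3 was seen in 79.1% and 83.6% and Wnt1 in 52.3% and 51.4%, with no common order of the libraries before and after thinning for Wnt1. At full depth 88.1% of cells in RA and 89.3% in RA+BMP4 had a UMI of Wnt1 or Rspo3, so few cells of the set lacked both. Gdf7, the BMP ligand that defines spinal roof plate in the embryo, was at 0.22 in RA and 0.24 CPM in RA+BMP4 and had a UMI in 3 of 497 and 1 of 214 cells at full depth. After thinning it had one in 0 of 495 cells, which allows a share of up to 0.606% with a UMI at that depth, and in 1 of 214 cells. In Wnt1 Rspo3 cells Gdf7 was at 1.72 and 4.74 CPM. The other BMP ligands of the list were Bmp6 at 54.9 and 39.2 CPM, Bmp7 at 44.6 and 46.3 CPM, Bmp4 at 29.9 and 42.7 CPM, and Bmp5 at 0.14 and 0.47 CPM. Bmp7 was at 10.3 and 8.88 CPM in Wnt1 Rspo3 cells, below the set in both libraries.

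Choroid plexus genes ranged from high levels to 0. Of 26 genes in the list, 13 were at 1 CPM or more in the set in at least 1 library and 5 had no UMI in either. After thinning, 42.4% of cells in RA and 40.2% in RA+BMP4 had UMIs of at least 3 of the 26 genes. The shares were 21.4% and 22.1% in Wnt1 Rspo3 cells and 0.269% and 1.09% in neurons. Unthinned, they were 92.15% and 81.3% in the set, 63.5% and 53.4% in Wnt1 Rspo3 cells and 3.92% and 6.10% in neurons. Of 6 genes at 20 CPM or more in the set or in other cells, 5, namely Folr1, Sostdc1, 1500015O10Rik, Calml4 and Igfbp2, were at least 2-fold above other cells in both libraries and none below, where 3.33% of 7082 genes were higher and 5.07% lower. Folr1, a folate receptor of choroid plexus, was at 56.7 in RA and 51.3 CPM in RA+BMP4, against 26.2 and 12.6 CPM in other cells. Igfbp2, a carrier of insulin-like growth factors, was at 1245 and 947 CPM, against 367 and 430 CPM. Of these 5, Sostdc1 and 1500015O10Rik had also been proposed as markers, so their place among the 5 is a description. Both count among the 26 genes as well, so the shares of cells with at least 3 of the 26 are partly a description too.

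The genes that define differentiated choroid plexus were at or near 0. Ttr (transthyretin) had no UMI in 13871319 UMIs in RA and 4211873 UMIs in RA+BMP4, where 3 UMIs would be 0.216 and 0.712 CPM. Aqp1, a water channel, was at 0 and 0.24 CPM. Kl (klotho) was at 0.22 and 0.24 CPM, and the potassium channel gene Kcnj13 at 1.15 and 1.90 CPM. Otx2, a factor of forebrain and choroid plexus, was at 2.96 in RA and 2.37 CPM in RA+BMP4, but its UMIs came from 6 RA cells, 1 of which held 82.9%, and from 1 RA+BMP4 cell. Any of these 5 genes was seen in 1.41% of thinned cells in RA [0.570 to 2.89] and 1.87% in RA+BMP4 [0.511 to 4.72], against 0.583% and 0.688% of neurons. Unthinned, the shares were 4.63% [2.96 to 6.86] and 4.21% [1.94 to 7.83], against 2.34% and 1.64% of neurons. The interval of the set included the value in neurons after thinning in both libraries, and lay above it unthinned, where the set was deeper than the neurons. Unthinned, Wnt1 Rspo3 cells were at 3.15% and 2.20%, inside the intervals of the set. Collagen-rich cells (at least 20 collagen I UMIs) were at 5.58% in RA, also inside, and at 0.637% in RA+BMP4, below.

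**Figure D1:**
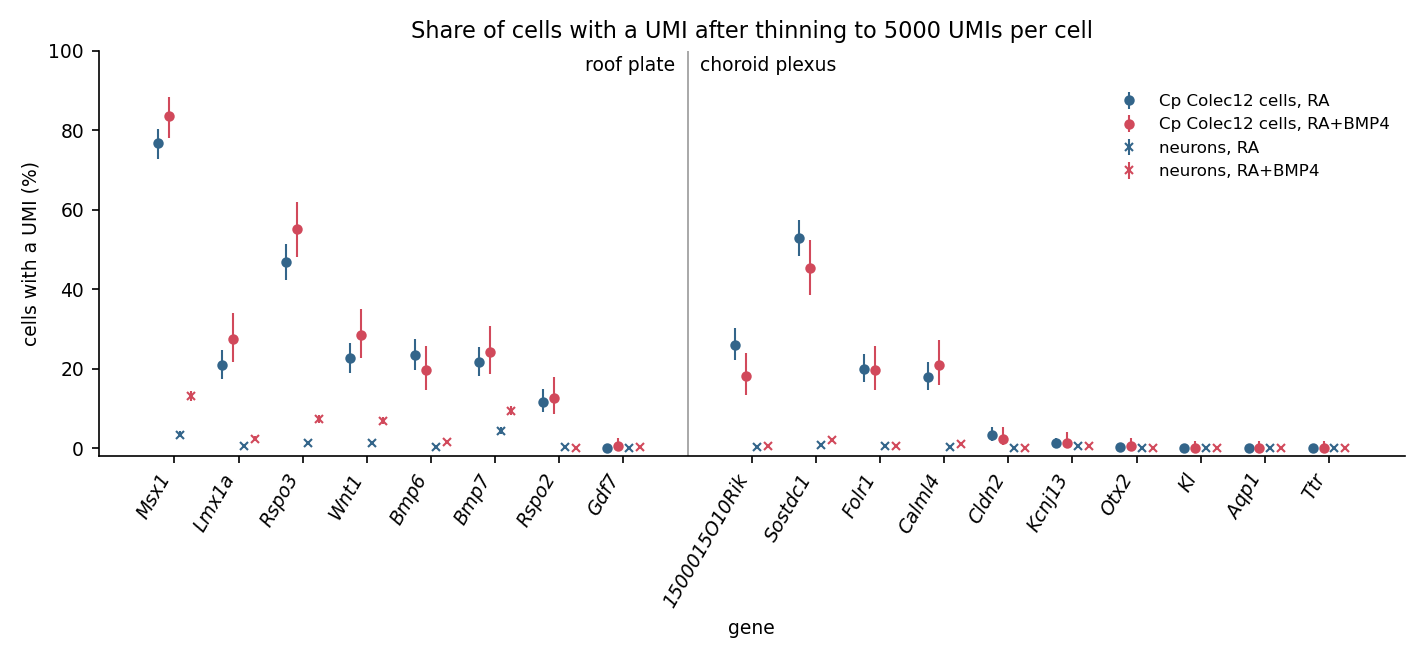
Share of cells with at least 1 UMI (percent, y axis) of roof plate and choroid plexus genes (x axis) after thinning each cell to 5000 UMIs, in Cp Colec12 cells (circles) and neurons (crosses) of the RA and RA+BMP4 libraries, with exact Clopper-Pearson intervals (95%). Msx1 is seen in 76.8% and 83.6% of Cp Colec12 cells, while Gdf7, Otx2, Kl, Aqp1 and Ttr lie at or near 0.

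The proposed name, dorsal midline epithelial cells, was checked against further markers. Hoxc8, a Hox gene of trunk levels, was at 269 in RA and 427 CPM in RA+BMP4, and Six3, a forebrain factor, had no UMI in either library. Hox genes of paralog groups 6 to 8, Hoxc8 among them, summed to 915.5 and 1150 CPM, against 1271 and 1431 CPM in other cells. Those of groups 9 to 13 summed to 182 and 291 CPM, against 576 and 797 CPM. All 3 testable genes of groups 9 to 13 were at least 2-fold below other cells in both libraries. Six3 belongs to a list of 10 anterior neural genes, of which 3 had no UMI in either library. In at least 1 library, 6 of the 10 were at 1 CPM or more and 1 at 20 CPM or more. The list summed to 28.5 in RA and 36.6 CPM in RA+BMP4, against 69.2 and 69.3 CPM in other cells. Of the epithelial genes, Cdh1 (E-cadherin) was at 2.16 and 0.475 CPM. The highest of the 7 claudins in that list was Cldn1 at 3.96 and 2.14 CPM, and Cldn2, a claudin of choroid plexus, was at 6.99 and 5.94 CPM. Epcam, an adhesion molecule of epithelia, was at 20.9 and 11.9 CPM, against 39.4 and 24.7 CPM in other cells. The keratins of simple epithelia were at 29.8 and 42.7 CPM for Krt18 and 12.3 and 18.0 CPM for Krt8, against 18.8 and 22.4 CPM and 16.6 and 18.6 CPM in other cells. Cdh2 (N-cadherin, the cadherin of neural epithelium) was at 293 and 264 CPM. Cdh6, another cadherin, and F11r, a junction protein, were the only 2 of 9 testable junction genes at least 2-fold above other cells in both libraries. The ciliary genes of ependyma were near 0, with Foxj1 at 3.10 and 2.37 CPM. All 11 neuronal genes were at least 2-fold lower than in other cells in both libraries. Of the roof plate genes described above, Msx1, Lmx1a, Rspo3 and Wnt1 were present, while Gdf7 and Bmp5 were near 0. The epithelial genes were mixed as well, so the set is called Cp Colec12 cells here.

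Mesenchymal genes were partly present even though the rule limits collagen I. Of 7 testable genes of the mesenchymal list, Twist1 and Col5a1 were at least 2-fold above other cells in both libraries, and Col1a1, Col1a2 and Dcn were below, of which the collagen I genes are part of the rule. Twist1, a mesenchymal transcription factor, was at 151 in RA and 237 CPM in RA+BMP4, against 54.9 and 90.2 CPM in other cells and 59.6 and 67.5 CPM in Wnt1 Rspo3 cells. Twist1 was spread over 429 of 497 cells in RA and 177 of 214 in RA+BMP4, and the 5 richest cells held 5.50% and 11.2% of its UMIs. Sox2, a neural progenitor factor, and Twist1 occurred in the same cell after thinning in 20.2% of cells in RA and 26.2% in RA+BMP4, against 12.7% and 15.5% of Wnt1 Rspo3 cells and 0.404% and 1.12% of neurons. Unthinned, both occurred in 74.8% and 68.2% of the set and in 39.6% and 35.97% of Wnt1 Rspo3 cells. Prrx1, a factor of limb and cranial mesenchyme, was at 52.1 and 96.6 CPM. Dcn (decorin) and Postn, which mark fibroblasts, were at 8.07 and 9.02 CPM and at 0.72 and 2.85 CPM. Over the 15 mesenchymal genes the summed level was 439 in RA and 721 CPM in RA+BMP4, against 4879 and 4783 CPM in collagen-rich cells (at least 20 collagen I UMIs). The part of collagen-rich cells' RNA in these levels was not tested.

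Across all genes, 236 were at least 2-fold higher in the set than in other cells of both libraries and 359 lower, out of 7082. In RA alone the shares of genes were 5.9% higher and 6.72% lower, and in RA+BMP4 alone 3.7% and 5.92%. The leading genes were ranked by the lower of the 2 folds with 5 CPM added. These folds describe the set. Each of the 25 leading genes stayed at least 2-fold above other cells in both libraries under 6 other cell rules. The same held with the Dppa5a cells removed. These genes were ranked by fold in the same data, and Cp and Colec12 are part of the rule, so this is a description.

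A pair of Wnt pathway ligands separated the set from the Wnt1 Rspo3 cells. Wnt6, a Wnt ligand of ectoderm on chromosome 1 (74771892 to 74785322), was at 38.9 CPM in RA [35.7 to 42.4] and 53.9 CPM in RA+BMP4 [47.1 to 61.4], but at 1.72 and 1.70 CPM in Wnt1 Rspo3 cells. Rspo2, an R-spondin on chromosome 15 (43020794 to 43170826), was at 28.3 CPM [25.6 to 31.3] and 24.5 CPM [19.96 to 29.66], against 1.72 and 0.37 CPM. Neither gene is part of either rule. Thinned shares were low, with Wnt6 in 10.7% and 14.5% of the set and Rspo2 in 11.7% and 12.6%, against at most 1.82% of Wnt1 Rspo3 cells for either gene. Unthinned, Wnt6 was seen in 27.97% and 30.8% of the set and Rspo2 in 33.8% and 25.7%, against at most 2.70% of Wnt1 Rspo3 cells. Dkk2, a secreted Wnt modulator, was at 46.9 and 40.1 CPM, against 6.62 and 2.82 CPM in Wnt1 Rspo3 cells. Wif1, which binds Wnt proteins, was at 49.2 and 42.3 CPM, against 34.1 and 14.3 CPM.

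A pair of semaphorins and several matrix genes were among the 25 leading genes. Sema3a, a repellent of axons, was at 165 in RA and 195 CPM in RA+BMP4, and Sema3c at 170 and 150 CPM. In Wnt1 Rspo3 cells Sema3a was at 39.2 and 29.4 CPM and Sema3c at 64.3 and 64.9 CPM. Col18a1, a basement membrane collagen, was at 239 and 233 CPM, against 49.7 and 49.4 CPM in other cells. Of 16 testable basement membrane and matrix genes, 6 were at least 2-fold above other cells in both libraries (Col4a5, Col4a6, Col18a1, Nid2, Hspg2 and Sparc) and 2 were below (Spp1 and Vcan). Thbs1 (thrombospondin) was at 177 and 165 CPM and Ctgf, a matricellular protein, at 127 and 115 CPM. Collagen-rich cells reached the level of the set for Thbs1 in RA+BMP4, at 164.7 CPM, but not in RA, at 79.1 CPM.

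Tagln, a gene of contractile cells, was singled out after its values were seen. It was at 135 in RA and 191 CPM in RA+BMP4, against 3.19 and 10.96 CPM in Wnt1 Rspo3 cells and 530 and 670 CPM in collagen-rich cells. The set thus lay between these 2 kinds of cells. Transport and metabolic genes among the 25 were Slc16a12, a monocarboxylate and creatine carrier, at 29.2 and 31.6 CPM, and Car3, a carbonic anhydrase, at 88.5 in RA and 46.3 CPM in RA+BMP4. Gjb2, a connexin, was at 33.6 and 45.6 CPM, against 26.5 and 22.5 CPM in Wnt1 Rspo3 cells, a log2 difference of 1.02 [0.76 to 1.27] in RA+BMP4. Gpc4, a glypican of the cell surface that binds growth factors, was at 59.9 and 52.7 CPM, against 13.98 and 7.08 CPM in Wnt1 Rspo3 cells. Cx3cl1, the chemokine fractalkine, was at 45.3 and 45.6 CPM, against 23.5 and 18.6 CPM. Limch1, an actomyosin regulator, was at 161.8 and 185 CPM, against 50.8 and 46.4 CPM. Naaladl2, Syt6, Olfml3, Rbm47, Slc14a2, Mal2 and Tuft1 completed the 25 leading genes, with Olfml3 at 54.6 and 72.2 CPM and Mal2 at 25.2 and 17.6 CPM. Against Wnt1 Rspo3 cells, 154 of 6762 genes (2.28%) were at least 2-fold higher in the set in both libraries and 95 (1.4%) were lower.

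**Figure D2:**
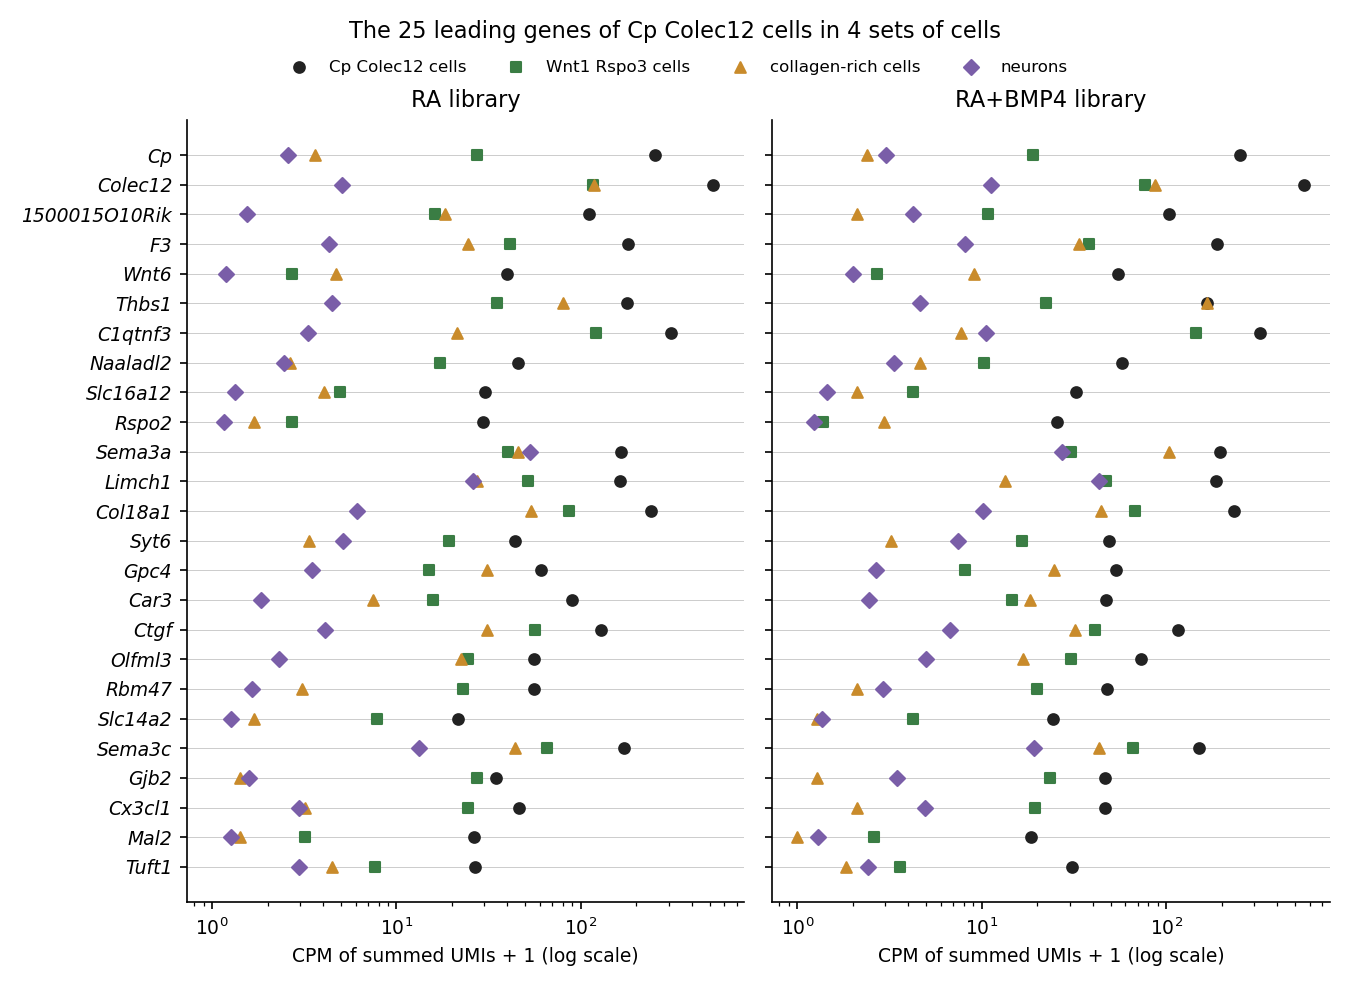
Level of the 25 leading genes (rows) as CPM of summed UMIs plus 1 on a log axis, in Cp Colec12 cells, Wnt1 Rspo3 cells, collagen-rich cells and neurons of the RA library (left) and the RA+BMP4 library (right). Wnt6 lies at 38.9 and 53.9 CPM in Cp Colec12 cells and at 1.72 and 1.70 CPM in Wnt1 Rspo3 cells, while Gjb2 lies at 33.6 and 45.6 CPM against 26.5 and 22.5 CPM.

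Response genes and other pathways were read from gene lists. Of 8 testable BMP response genes, Msx1 and Smad6 (an inhibitory Smad) were at least 2-fold above other cells in both libraries and none was below. Id3, a direct BMP target, was at 335 in RA and 312 CPM in RA+BMP4, against 1014 and 989 CPM in Wnt1 Rspo3 cells. Among Wnt targets, Axin2 was at 123 and 135 CPM, against 150 and 244 CPM in Wnt1 Rspo3 cells. Of 7 testable retinoic acid genes, 3 were above other cells in both libraries, among them Stra6 (a retinol transporter) and Dhrs3 (a retinal reductase). Crabp1 and Crabp2, which bind retinoic acid, were below. In the Hedgehog list Cdon and Gas1, both co-receptors, were above other cells among 5 testable genes, and Shh had no UMI.

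Of the radial glia genes, Fabp7 (a fatty acid binding protein of neural progenitors) was at 791 in RA and 697 CPM in RA+BMP4, against 3418 and 2706 CPM in Wnt1 Rspo3 cells. Sox2 was at 161 and 155 CPM, against 286 and 297 CPM. Cells with at least 2 UMIs of G2 and M phase genes after thinning were 53.7% of cells in RA [49.2 to 58.2] and 48.1% in RA+BMP4 [41.3 to 55.0]. Other kept cells had 39.1% [37.8 to 40.5] and 37.2% [36.1 to 38.2], and Wnt1 Rspo3 cells 45.0% and 41.9%. Unthinned, the shares were 82.3% and 78.5% in the set and 62.4% and 56.3% in other cells. In cells at full depth with fewer than 2 such UMIs, C1qtnf3 was at 471 in RA and 466 CPM in RA+BMP4, against 286 and 296 CPM in the rest. Calml4 was at 71.7 and 86.0 CPM, against 44.1 and 44.2 CPM. Cells with fewer such UMIs were shallower, with medians of 16280 and 12930 UMIs against 25260 and 17870, and the part of depth was not tested.

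Within the set the level of Cp went with other genes. Each library's cells were ranked by Cp UMIs per UMI of the cell and split into 3 groups of equal size, so the order of Cp itself is a description. In the Cp-high group, Wnt6 was at 81.1 in RA and 100.8 CPM in RA+BMP4, against 14.8 and 12.2 CPM in the Cp-low group. Rspo2 was at 56.3 and 45.8 CPM, against 10.6 and 11.6 CPM. Dkk2 was at 95.3 and 83.2 CPM, against 16.6 and 15.2 CPM. All 3 genes were thus at least 3-fold higher in the Cp-high group of both libraries, and their intervals did not overlap. 1500015O10Rik was at 193.6 and 140.5 CPM, against 64.9 and 37.9 CPM, and Igfbp2 at 2030 and 1593 CPM, against 749 and 514 CPM.

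Other genes ran the opposite way. Fabp7 was at 1397 CPM in RA [1367 to 1428] and 1203 CPM in RA+BMP4 [1151 to 1256] in the Cp-low group, and at 139.6 [128.5 to 151.5] and 129.8 CPM [111.1 to 150.9] in the Cp-high group. Wnt1 was at 82.0 and 115.9 CPM in Cp-low cells and 32.3 and 36.7 CPM in Cp-high cells. Rspo1 was at 85.0 and 101.4 CPM, against 21.9 and 16.8 CPM. Id4, an inhibitor of bHLH factors, was at 56.8 and 36.7 CPM, against 12.5 and 6.9 CPM. Msx1 was at 416 and 511 CPM in Cp-low cells and 481 and 471 CPM in Cp-high cells, with no common direction. The Cp-low cells were deeper, with medians of 28190 UMIs in RA and 21830 in RA+BMP4 against 19940 and 14660 in Cp-high cells. The part of depth in these differences was not tested, and the groups are ranges of one measure and not cell types.

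**Figure D3:**
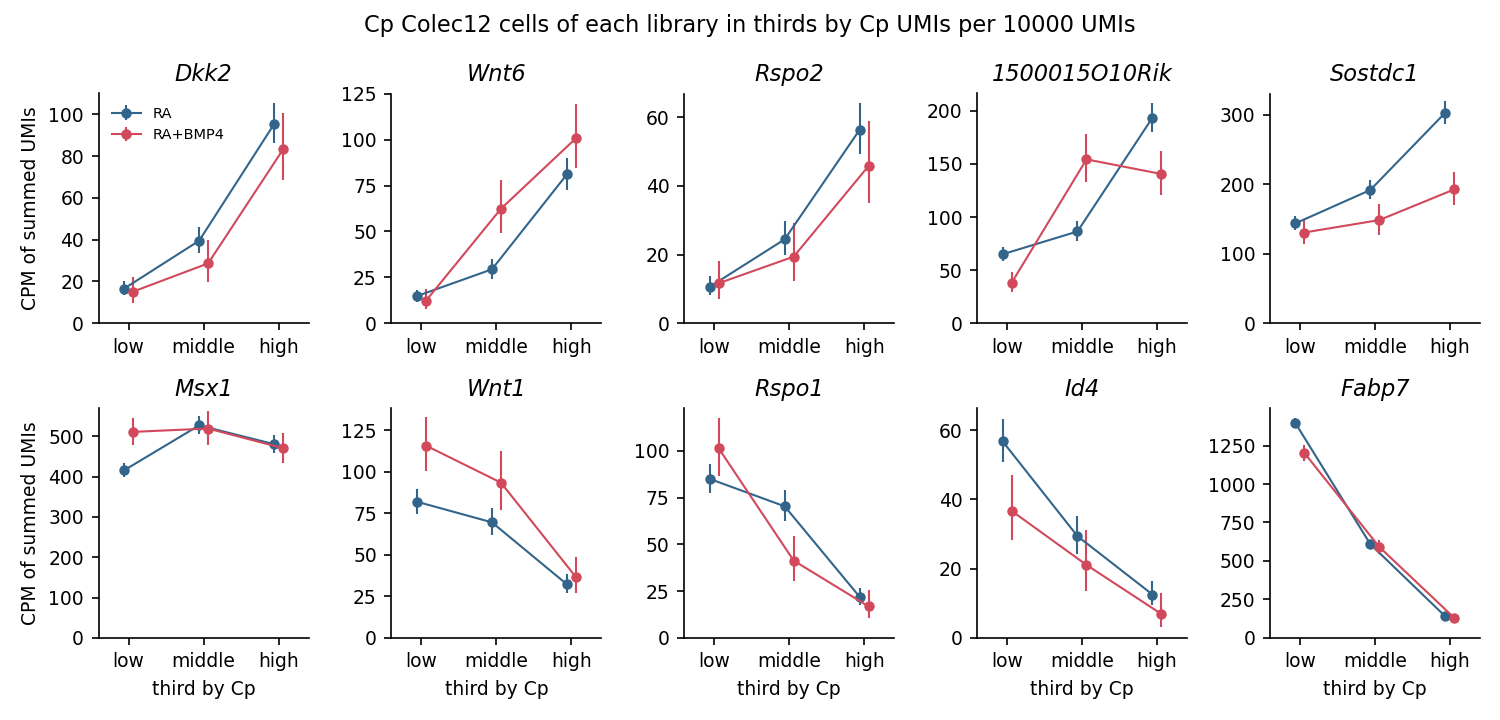
Summed level (CPM, y axis) of 10 genes in Cp Colec12 cells of each library, split into 3 equal groups by the cell's Cp share (x axis), with exact Poisson intervals (95%). Dkk2, Wnt6 and Rspo2 go up from low to high, Wnt1, Rspo1, Id4 and Fabp7 go down, and Msx1 has no common direction.

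A few cells, 59 in RA and 23 in RA+BMP4, had no UMI of Wnt1 or Rspo3. Their median depths were 21020 and 15820 UMIs, against 22630 and 16830 in the rest of the set. Msx1 was lower in them, at 254 in RA and 153 CPM in RA+BMP4 against 493 and 540 CPM. Lmx1a was at 22.7 and 27.9 CPM against 50.5 and 62.1 CPM. Wnt6 was higher, at 81.2 and 146 CPM against 34.0 and 43.4 CPM, and so was Tnc (tenascin, a matrix glycoprotein) at 67.4 and 32.5 CPM against 12.2 and 7.40 CPM. The intervals of these 4 genes did not overlap between the 2 kinds of cells in either library.

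The RA and RA+BMP4 cells of the set were alike in most genes. Of 6918 genes at 20 CPM or more in at least 1 library, 25 (0.361%) were at least 2-fold higher in RA+BMP4 and 13 (0.188%) lower. In other kept cells 1.3% of genes were higher and 0.682% lower, in Wnt1 Rspo3 cells 0.826% and 0.342%, and in collagen-rich cells 0.936% and 1.03%. The set had the lowest share in both directions among these 4 kinds of cells, and whether the shares differ was not tested.

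Each marker lay within 2-fold between the 2 libraries. Cp and Colec12 are part of the rule in both libraries, so their ratios are partly set by it and are a description. The log2 ratio of RA+BMP4 over RA was -0.02 [-0.12 to 0.08] for Cp, 0.11 for Colec12, -0.10 [-0.25 to 0.06] for 1500015O10Rik, 0.07 for C1qtnf3, 0.05 for F3 and -0.41 [-0.53 to -0.28] for Sostdc1. Under the stricter cell filter, with 72 RA cells, the ratio was 0.48 for Cp, 0.95 for 1500015O10Rik, 0.68 for C1qtnf3 and -0.03 for Sostdc1. All stayed within 2-fold in the 10 other settings run. Of 18 roof plate genes tested only Msx2, a BMP-induced factor at 9.30 in RA and 20.9 CPM in RA+BMP4, passed 2-fold. The median log2 ratio was 0.05 over the roof plate list, as over all tested genes, and -0.10 over the choroid plexus list, of which none of 6 tested genes passed. In other kept cells the roof plate list had a median of 0.85, against 0.07 over all genes.

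Msx1 had a log2 ratio of 0.10 [0.03 to 0.17] in the set and 1.97 in other cells. The ratio of Msx1 in the set was -0.13 with at least 4 Cp UMIs and 0.62 under the stricter filter. Rspo3 had 0.39 [0.28 to 0.50] and 2.47, and Sostdc1 -0.41 and 1.75. Under the stricter filter Rspo3 passed 2-fold in the set, at 1.25. The other cells held 222 Wnt1 Rspo3 cells in RA and 1543 in RA+BMP4, and the part of this mix in the ratios was not tested. Within Wnt1 Rspo3 cells the log2 ratio was 0.35 for Msx1, 0.62 for Rspo3 and 0.46 for Sostdc1. In other cells, more cells of a type and more RNA per cell cannot be told apart.

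**Figure D4:**
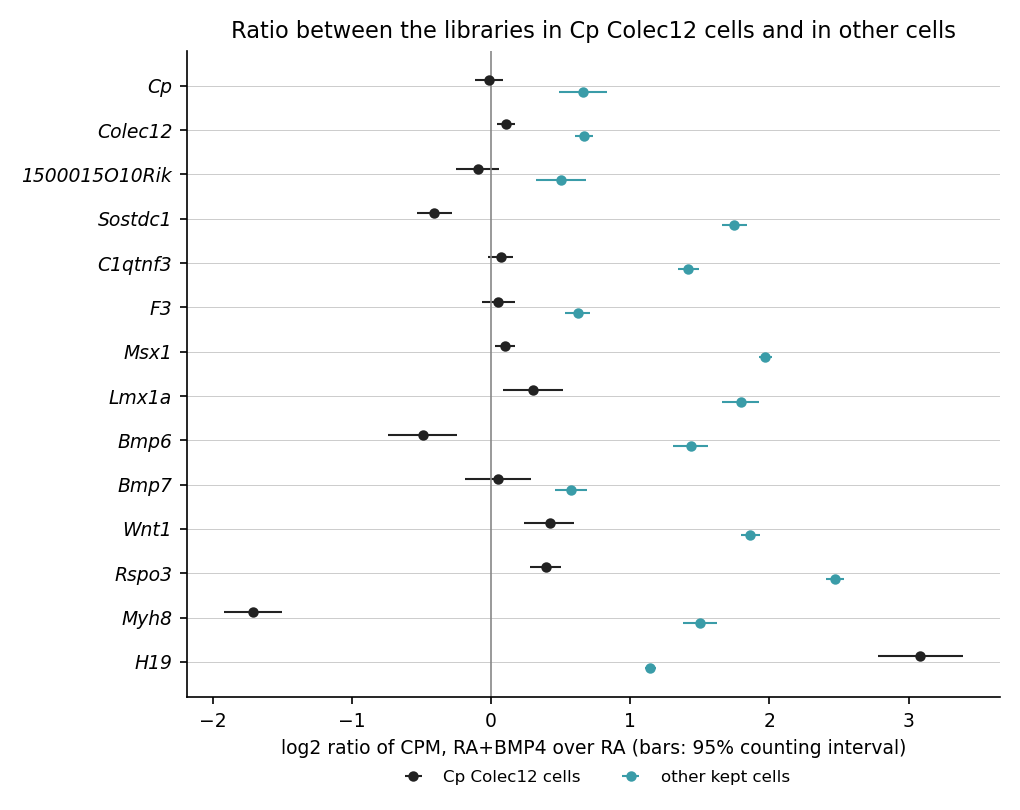
Log2 ratio of CPM, RA+BMP4 over RA (x axis), of 14 genes (rows) in Cp Colec12 cells and in all other kept cells, with exact conditional intervals (95%). Marker and roof plate genes lie between -0.49 and 0.42 in Cp Colec12 cells and above 0 in other cells, Myh8 has opposite signs, and H19 has the highest ratio in Cp Colec12 cells. Cp and Colec12 are part of the rule that separates these kinds of cells, so their ratios are a description.

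The largest ratio belonged to H19, an imprinted noncoding RNA of the Igf2 region on chromosome 7 (142575529 to 142578143), at 9.01 CPM in RA [7.50 to 10.7] and 76.2 CPM in RA+BMP4 [68.1 to 85.0]. Its log2 ratio was 3.08 [2.78 to 3.39]. H19 was present in 53 of 497 cells in RA (10.7%) and 80 of 214 in RA+BMP4 (37.4%), and the 5 richest cells held 56.8% and 41.7% of its UMIs. Plagl1, an imprinted zinc finger gene, was at 8.15 and 41.6 CPM, in 28 and 47 cells. Igf2, the growth factor gene beside H19, was at 10.0 and 20.4 CPM. Dlk1, another imprinted gene, was at 30.8 and 62.0 CPM. Collagen-rich cells had H19 at 617 and 728 CPM, and Wnt1 Rspo3 cells at 51.8 and 217 CPM. The part of RNA from collagen-rich cells was not tested.

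Hoxc9, a thoracic Hox gene, was at 25.95 in RA and 90.2 CPM in RA+BMP4, which is a log2 ratio of 1.80 [1.59 to 2.01], with UMIs in 28.4% and 58.4% of cells. The ratio was 1.77 in other cells and 1.25 in Wnt1 Rspo3 cells, on the same side as in the set. Hoxa9 was at 5.1 and 17.6 CPM, below the level needed for a call, and Hoxb9 at 145 and 178 CPM. Crabp1 was at 47.1 and 115.6 CPM, against 749 and 2642 CPM in neurons. Mfap2, a matrix microfibril protein, was at 7.35 and 27.1 CPM, and Tagln2, an actin-binding protein, at 59.3 and 132.2 CPM. Myl9 (a myosin light chain) was at 18.5 and 44.4 CPM, Lgals1 (galectin) at 33.2 and 73.1 CPM and Timp3 (a protease inhibitor) at 15.1 and 32.5 CPM. For Lgals1 the 5 richest RA+BMP4 cells held 41.2% of UMIs. The 15 were ranked with 5 CPM added to both sides, which lowers the rank of genes at low levels. Outside them, Wnt3, a Wnt ligand, had a log2 ratio of 1.17 and was at 11.5 and 25.9 CPM. Pou3f2, Scn3a, Fndc5, Apela and Atf3 completed the 15 named genes, with log2 ratios from 1.05 to 1.31. The mesenchymal list summed to 439 in RA and 721 CPM in RA+BMP4, and its part in the ratios of Mfap2, Myl9 and Lgals1 was not tested.

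Of the 12 genes lower in RA+BMP4 apart from a mitochondrial gene, 4 are active in pluripotent cells. L1td1 was at 33.1 in RA and 2.14 CPM in RA+BMP4, Zfp42 at 26.5 and 4.75 CPM, Tdgf1 at 22.6 and 5.94 CPM, and Klf5 at 20.5 and 9.26 CPM. L1td1 sat in 31 of 497 RA cells, with 71.7% of its UMIs in 5 cells. The 45 RA cells with at least 2 Dppa5a UMIs held 95.9% of L1td1, 94.3% of Zfp42, 94.6% of Tdgf1 and 60.9% of Klf5 UMIs. These 45 cells had a median of 32420 UMIs against 21610 in the rest, and 3 of them were called doublets. The 4 RA+BMP4 cells with at least 2 Dppa5a UMIs held 88.9% of L1td1, 95% of Zfp42 and 100% of Tdgf1 UMIs. With the cells of both libraries left out, 23 of the 27 named genes stayed past 2-fold. That count did not ask for 20 CPM again. Few UMIs of L1td1, Zfp42 and Tdgf1 were left, so the count does not speak for these genes. The part of doublets was not tested.

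The remaining lower genes differed in how many cells held them. Myh8, a developmental myosin heavy chain on chromosome 11 (67277124 to 67308634), was at 161.6 CPM in RA [154.9 to 168.4] and 49.4 CPM in RA+BMP4 [42.9 to 56.6], a log2 ratio of -1.71 [-1.92 to -1.50]. It was found in 243 of 497 cells in RA and 68 of 214 in RA+BMP4, with 14.2% and 25.96% of UMIs in the 5 richest cells. In RA this gene was 22.8-fold above other cells and in RA+BMP4 2.47-fold. Ppp1r1a, a phosphatase inhibitor, was at 40.1 and 15.9 CPM, in 55.5% and 22.4% of cells. Sorcs1, a sorting receptor, was at 26.7 and 9.97 CPM, in 39.2% and 16.8% of cells. Trap1a was at 55.3 and 19.5 CPM, in 80 RA and 11 RA+BMP4 cells, and 73.2% of its RA+BMP4 UMIs lay in 5 cells. Prps2 was at 55.5 and 27.5 CPM, Pou3f3 at 34.8 and 16.6 CPM, Gstm1 at 33.0 and 15.9 CPM and Gap43 at 31.1 and 13.1 CPM. For Gap43, 5 cells held 38.2% of the RA UMIs. With each cell weighted equally, or with other scalings, Myh8, Ppp1r1a and Sorcs1 stayed past 2-fold. Under the stricter cell filter, with 72 RA cells, the log2 ratio of Sorcs1 was -0.76 and 18 of the 27 named genes stayed past 2-fold.

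**Figure D5:**
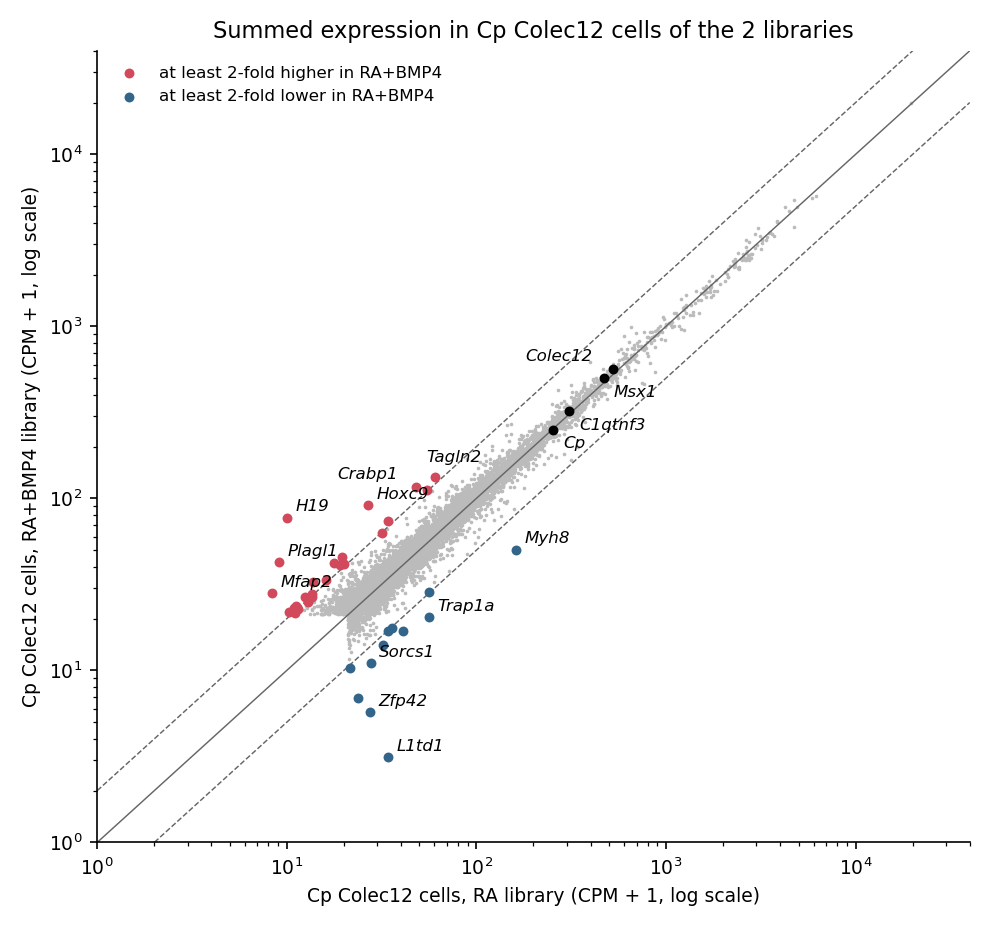
Summed level of each tested gene in Cp Colec12 cells of the RA library (x axis) and the RA+BMP4 library (y axis), as CPM plus 1 on log axes, with lines at equality and at 2-fold. Cp, Colec12, C1qtnf3 and Msx1 lie near the line of equality, while H19 (9.01 and 76.2 CPM) and Myh8 (161.6 and 49.4 CPM) lie outside the 2-fold lines. Cp and Colec12 are part of the rule, so their place is a description.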

How the data were processed

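Cells of 2 day 9 cultures, RA and RA+BMP4, were captured with 10x Genomics Chromium chemistry, 1 library each, as the labels' protocols say. The authors deposited unnormalized UMI counts of each gene in each barcode. Cell Ranger 3.0.2 (also the version in the file headers), CASAVA and the build GRCm38 are named in the submitters' processing notes. Libraries held 122110565 UMIs (RA) and 115268932 UMIs (RA+BMP4). The members and lists were chosen with earlier results of these data known.

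Barcodes needed 1000 genes and at most 10% mitochondrial UMIs. Doublets were called with Scrublet (scanpy 1.11.5, expected rate 8%) and kept, except in an alternative. Counts were summed per library and scaled to CPM (numpy 2.4.6, pandas 2.3.3). Ratios had exact conditional binomial intervals, levels exact Poisson intervals and shares Clopper-Pearson intervals (scipy 1.17.1), all at 95%. Genes were called at 20 CPM on 1 side and a 2-fold ratio, with fewer than 3 counts set to 3. Cells were thinned to 5000 UMIs for shares, which left out 2 RA cells of the set. With 1 library per condition no test was made and no p-value is given.

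Named genes were all listed genes and markers, the 25 highest folds over other cells, the 15 highest and lowest called ratios and the 10 highest and lowest differences of ratio from other cells, without predicted models and mitochondrial genes. Tagln, the promoter motifs, the Dppa5a alternative and the Dppa5a limit on neurons were chosen after seeing the data. Alternatives were other limits on Cp, Colec12, cells and CPM, thinning before the rule, removal of doublets or of Stmn2-rich cells, equal weight per cell, and TMM and median-of-ratios scaling from edgeR 4.0.16 in R 4.3.3. The steps were tested on simulated data. Gene coordinates came from GENCODE on GRCm38 and promoters from RefSeq GRCm38.p6, where entries were found for Cp, 1500015O10Rik (as Ecrg4), C1qtnf3 and F3. A few listed genes are not reported here.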

Additional observations from a re-analysis of the deposited data

Results flagged for a closer look

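Myh8 had a log2 ratio of RA+BMP4 over RA of -1.71 [-1.92 to -1.504] in Cp Colec12 cells and 1.501 in all other kept cells, opposite signs with 1 library on each side. Its level was 161.6 in RA and 49.4 CPM in RA+BMP4 in Cp Colec12 cells, 7.07 and 20.01 CPM in other cells, and 65.5 and 66.1 CPM in Wnt1 Rspo3 cells, where the ratio was 0.01. The difference between these kinds of cells was not tested.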

How the results depend on the processing

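No paired analysis was possible because each condition had 1 library, and no library could be left out. The share of Cp Colec12 cells in RA was 5.35% with at least 4 Cp UMIs, 5.70% under the stricter cell filter, 2.60% with the rule after thinning, 5.49% with no cell filter and 7.49% without the Dppa5a cells. In RA+BMP4 it was 1.12% with at least 4 Cp UMIs, 2.12% with at least 2 Colec12 UMIs, 0.806% after thinning and 1.65% with no cell filter. The ratio of shares was 4.77 with at least 4 Cp UMIs and 2.15 under the stricter filter, and 3.08 to 3.63 under the 6 other settings.

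The 25 genes higher and 13 lower in RA+BMP4 became 41 and 29 with at least 4 Cp UMIs, 100 and 67 under the stricter filter, 67 and 43 after thinning, 7 and 4 at 50 CPM, and 294 and 340 with no CPM filter; fewer cells were summed in the first 3. TMM and median-of-ratios scaling each gave 19 and 14, and TMM moved the median log2 ratio of tested genes from 0.05 to -0.02. The 236 genes higher and 359 lower than in other cells became 139 and 173 at 50 CPM, and 766 and 1273 with no CPM filter. Among the ratios of the 27 called genes and the folds of the 25 leading genes, 0 of 445 recomputed values changed sign. These genes were picked for large ratios or folds in the same data, and Cp and Colec12 are part of the rule. A change of sign was therefore unlikely from the start, and the count is a description. The ratios of 13 further genes, markers and roof plate genes, were recomputed under 10 settings each. With at least 4 Cp UMIs that of Msx1 became -0.13 and that of Wnt1 -0.079, and without the Dppa5a cells that of Colec12 became -0.0018. Over the settings the ratio ranged from 0.01 to 0.96 for Lmx1a, from -0.079 to 0.92 for Wnt1 and from 0.07 to 1.25 for Rspo3. Cp, 1500015O10Rik, C1qtnf3, F3 and Bmp7, whose intervals included 0, had the other sign in 3 to 5 settings. The cause of the moves in the shares was not tested.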

Other observations

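Genes with a ratio furthest from that of other kept cells were, on the high side after H19, Tfap2b (14.1 in RA and 24.2 CPM in RA+BMP4 in Cp Colec12 cells, 71.2 and 33.5 CPM in other cells) and Bhlhe22 (9.88 and 22.1 CPM, against 12.6 and 8.90 CPM). On the low side after Myh8 and L1td1 came Sostdc1, Rspo3, Sorcs1, Pla2g7 and Kcnn3. Pla2g7, a lipoprotein phospholipase, was at 98.4 and 110.2 CPM in Cp Colec12 cells and 21.3 and 93.6 CPM in other cells. Kcnn3, a calcium-activated potassium channel, was at 21.2 and 22.3 CPM, against 6.05 and 24.6 CPM. In Wnt1 Rspo3 cells their log2 ratios were 0.51 and 0.57.

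Ratios differed by chromosome. In Cp Colec12 cells, 86.6% of 576 tested genes on chromosome 11 and 90.2% of 397 on chromosome 8 had a log2 ratio above 0, with medians of 0.19 and 0.24. On the other autosomes 56.0% of 5675 genes did, with a median of 0.03. The medians of chromosomes 11 and 8 were 0.35 and 0.36 in Wnt1 Rspo3 cells, 0.21 and 0.20 in other kept cells and 0.21 and 0.21 in neurons. In collagen-rich cells they were -0.01 and -0.004. On chromosome X, 29 of 249 genes were at least 1.5-fold lower in RA+BMP4, against 38 of 5675 on the other autosomes. The same counts were 32 of 243 against 57 of 5710 in Wnt1 Rspo3 cells and 20 of 252 against 111 of 5840 in other kept cells. In collagen-rich cells they were 8 of 222 against 170 of 5473.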
